A study of Canis lupus familiaris with 15 samples.

Results

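The genes described here are 10 members of the ATF4 program and the unfolded protein response, chosen by symbol as ATF4, ASNS, DDIT3, TRIB3, PSAT1, PHGDH, HSPA5, XBP1, HERPUD1 and DNAJB9. The choice was made with earlier results of these data known. The platform annotation gives these symbols to 22 probe sets of 42924 that are not controls, and all 22 passed the filter on dim signals that left 24904 probe sets and 10287 genes. RNA came from the canine kidney line MDCK, whose cells grow into a polarised epithelial sheet when seeded on a porous support. Total RNA of whole cultures was hybridised to 15 Affymetrix canine arrays, so a change in the share of cells that express a gene and a change per cell cannot be told apart.

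Every culture spent 7 days on a Transwell filter in medium with serum. Group HGF + PD (n = 4) received hepatocyte growth factor (HGF) at 100 ng/ml for 24 h with a compound spelled PD09859 in the labels, at 50 uM. Group HGF + UO (n = 3) received the same HGF with UO126 at 10 uM. Group HGF (n = 4) received HGF alone, and Control (n = 4) received medium only. Both are described as inhibitors of MAPK signalling, and their names are taken here as misspellings of PD98059 and U0126, inhibitors of MEK, the kinase upstream of ERK. Cultures with an inhibitor but no HGF, or with vehicle, were not analysed here, and all results come from a single cell line.

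ATF4 is a transcription factor of the integrated stress response. Phosphorylation of the initiation factor eIF2alpha slows most translation but favours that of ATF4 mRNA, and ATF4 protein then activates genes for amino acid synthesis, amino acid uptake and stress control. The unfolded protein response of the endoplasmic reticulum (ER) feeds into ATF4 through the kinase PERK (EIF2AK3) and has further sensors, IRE1 and ATF6, which act through spliced XBP1 mRNA and a cleaved ATF6 fragment and raise chaperones and degradation factors. Arrays of this kind read mRNA levels, and neither eIF2alpha phosphorylation, XBP1 splicing nor ATF6 cleavage was measured.

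All 10 genes were higher with HGF than in Control, by 0.47 (HERPUD1) to 2.31 (DDIT3) on the log2 scale for each gene's brightest probe set, with a median of 0.77. Adding PD lowered 9 of the 10 and raised PHGDH, and adding UO lowered 8, with PSAT1 and PHGDH not past the threshold. Set against Control, the cultures with HGF and an inhibitor fell into 3 kinds: genes whose difference from Control did not pass with either inhibitor (ATF4, DDIT3, TRIB3, XBP1, DNAJB9), genes above Control with both (ASNS, PSAT1, PHGDH), and HERPUD1, which was below Control with both. HSPA5 passed above Control with UO and not with PD.

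These counts stand beside broad changes over the whole array. Because the members were chosen with earlier results of these data known, the shares over all genes describe the set and do not test it. Of all genes 28% were higher and 27.7% lower with HGF against Control at an adjusted p of 0.05 (limma with Benjamini-Hochberg adjustment over all probe sets), and the members' count was 10 higher and 0 lower. With PD against HGF 25.8% of all genes were lower and 29.9% higher, and with UO against HGF 26.3% were lower and 26.2% higher. The median absolute HGF change over all genes was 0.26, against the members' lowest change of 0.47 on brightest probe sets. Arrays did not overlap for 10 of 10 members in the direction of higher with HGF (26.4% of all genes), for 9 in the direction of lower with PD (29.9%) and for 8 in the direction of lower with UO (27.7%). The same direction held over probe sets, with 22 of 22 higher for HGF against Control (26.3% of all probe sets). For HGF + PD against HGF 17 were lower (25.1%) and 5 higher (30.3%), the 5 being those of PHGDH, and for HGF + UO against HGF 14 were lower (25.2%) and 8 did not pass. The HGF arrays serve in each of these 3 comparisons, as the raised group in the first and as the group compared against in the other two.

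**Figure D1:**
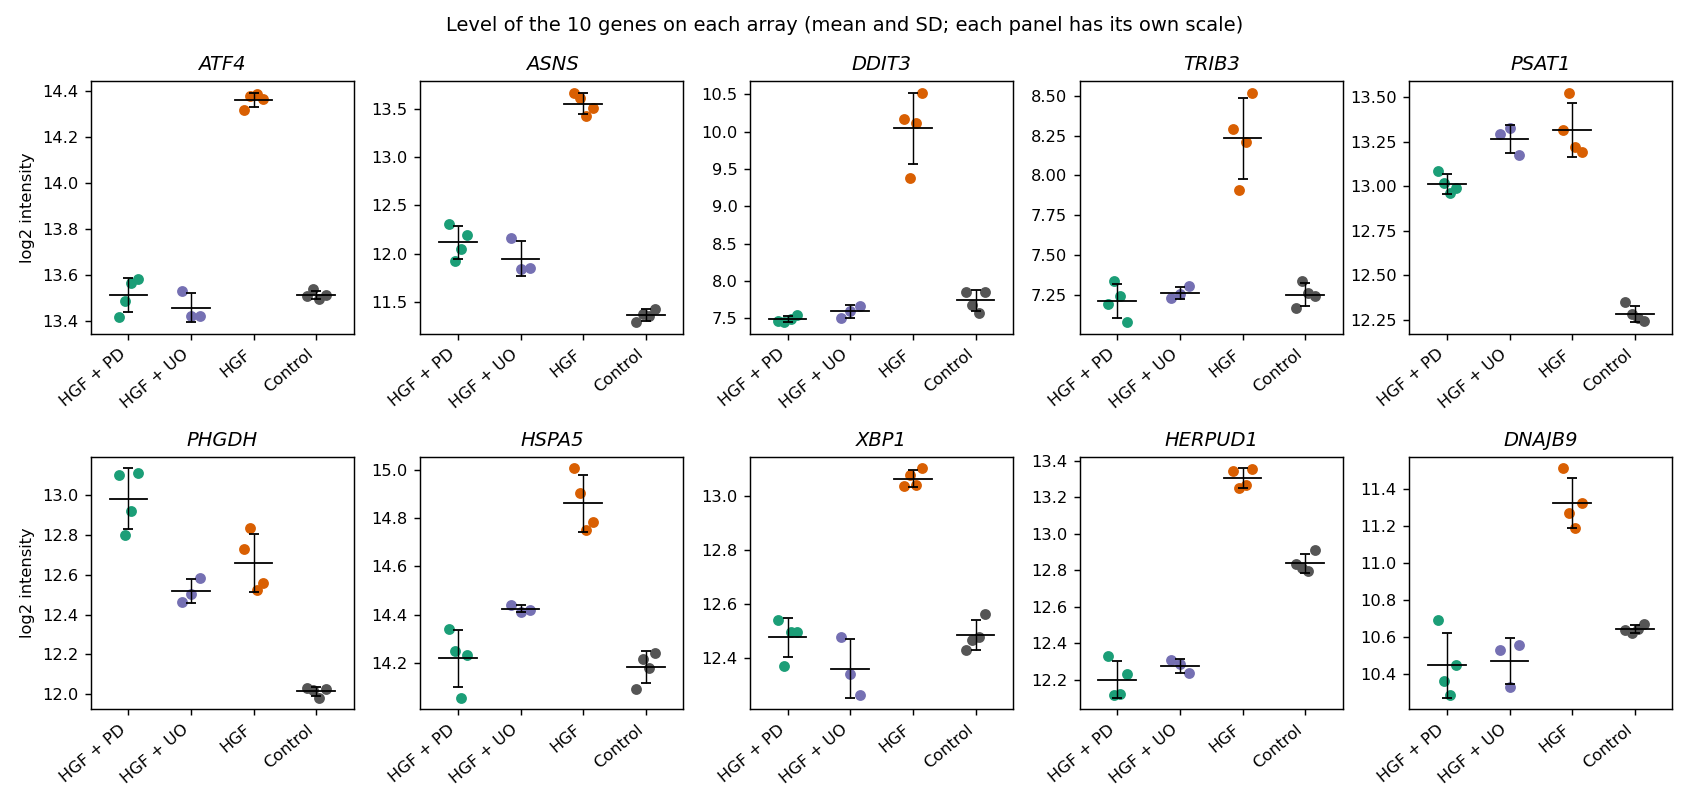
Log2 intensity of each gene (brightest probe set) on every array, with groups on the horizontal axis, points for arrays, and horizontal lines and bars for the mean and SD (n = 4, 3, 4 and 4). ATF4 sits between 14.32 and 14.39 on the 4 HGF arrays and between 13.42 and 13.58 on the other 11, while PSAT1 and PHGDH stay above Control in all 3 groups given HGF; scales differ between panels, so levels cannot be compared across genes.

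Several whole-array measures bear on these values. The median intensity ran from 40.4 to 42.6 over the 15 arrays. The log2 difference between the beta-actin control probe sets at the 3' end and at the 5' end, which is smaller where more complete transcripts were labelled, was 2.08 to 2.23 with HGF + PD, 2.11 to 2.19 with HGF + UO, 1.38 to 1.56 with HGF and 2.17 to 2.29 in Control. The measure thus separates the HGF arrays from the others as most of the 10 genes do, and its part in their changes was not tested. All 8 markers of epithelium and kidney tubule, CDH1 and EPCAM among them, had a mean log2 intensity over all arrays above 8. They did not move as one with HGF. Group means with HGF and in Control were 7.77 and 10.77 for CDH16, 7.57 and 9.15 for PAX8, and 14.59 and 15.32 for EPCAM. For CDH1 they were 10.40 and 9.80, and for CLDN7 12.79 and 12.64. The markers' summed intensity was 79568 to 101637 with HGF + PD, 86369 to 95346 with HGF + UO, 81930 to 99659 with HGF and 111710 to 123153 in Control. The 6 fibroblast markers summed to 134 to 155 over all groups, with COL1A1, COL1A2, DCN and LUM below the filter level. The 4 leukocyte markers annotated summed to 92.0 to 108, with PTPRC and ITGAM below it, and the 5 endothelial markers to 417 to 518, with TEK and VWF below it. Of the endothelial markers CDH5 had group means of 8.09 to 8.23 and PECAM1 of 7.13 to 7.24.

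ATF4 itself was measured by 1 probe set, with a spread of 0.03 (SD) on the HGF arrays. Its log2 intensity was 13.42, 13.49, 13.56 and 13.58 with HGF + PD and 13.53, 13.42 and 13.42 with HGF + UO. On the HGF arrays it was 14.32, 14.38, 14.39 and 14.37, against 13.51, 13.54, 13.49 and 13.51 in Control. The 4 HGF arrays lay above all others, and the remaining 3 groups overlapped. The rise with HGF over Control was 0.85 ± 0.04 (SE), or 1.80-fold, with an adjusted p of 1.18e-10. ATF4 fell by 0.85 ± 0.04 with PD against HGF (adjusted p = 1.22e-10) and by 0.91 ± 0.04 with UO against HGF (adjusted p = 1.7e-10). Against Control, the 95% interval of the difference was -0.08 to 0.08 with HGF + PD (adjusted p = 0.992) and -0.14 to 0.03 with HGF + UO (adjusted p = 0.384), so that a remaining difference of more than 0.14 in either direction lies outside both intervals.

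DDIT3 and TRIB3 are stress outputs of ATF4. DDIT3 encodes CHOP, a transcription factor of prolonged ER stress, and TRIB3 encodes a pseudokinase that CHOP and ATF4 induce and that restrains ATF4. DDIT3 had a log2 intensity of 7.46, 7.45, 7.49 and 7.55 with HGF + PD and of 7.51, 7.60 and 7.67 with HGF + UO. It was 10.17, 9.38, 10.11 and 10.52 with HGF, against 7.85, 7.68, 7.57 and 7.86 in Control. Its HGF arrays stood apart from all 11 others but spread over more than 1 log2 unit among themselves, the widest spread of the 10 genes. The rise with HGF over Control was 2.31 ± 0.17 or 4.95-fold (adjusted p = 3.16e-08). DDIT3 fell by 2.56 ± 0.17 with PD against HGF (5.88-fold, adjusted p = 1.05e-08) and fell by 2.45 ± 0.18 with UO against HGF (5.48-fold, adjusted p = 4.49e-08).

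TRIB3 moved less, with log2 intensities of 7.08 to 7.33 with HGF + PD and 7.23 to 7.30 with HGF + UO, and of 7.91 to 8.52 with HGF against 7.17 to 7.34 in Control. The HGF arrays did not overlap with the other groups, which overlapped with each other. It rose by 0.98 ± 0.10 with HGF (1.97-fold, adjusted p = 1.16e-06) and fell by 1.02 ± 0.10 with PD and by 0.97 ± 0.11 with UO against HGF (adjusted p = 7.78e-07 and 3.44e-06). HGF replicate 2 was the lowest and HGF replicate 4 the highest HGF array for both genes, at 9.38 and 10.52 for DDIT3 and at 7.91 and 8.52 for TRIB3. Against Control, TRIB3 differed by -0.04 ± 0.10 with HGF + PD (adjusted p = 0.788) and by 0.01 ± 0.11 with HGF + UO (adjusted p = 0.965). DDIT3 differed by -0.25 ± 0.17 with HGF + PD (adjusted p = 0.285), with its 4 HGF + PD arrays all below the Control arrays. Without HGF replicate 2, which narrows the shared estimate of the spread, that difference passed (adjusted p = 0.049), and it also passed when the 2 groups were fitted alone (adjusted p = 0.0317). With HGF + UO the DDIT3 difference from Control was -0.15 ± 0.18 (adjusted p = 0.66).

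ASNS, asparagine synthetase, is a direct ATF4 target whose promoter response to amino acid shortage is well known. On its brightest probe set, the log2 intensity was 12.31, 11.92, 12.05 and 12.19 with HGF + PD and 12.16, 11.84 and 11.85 with HGF + UO. It was 13.67, 13.61, 13.43 and 13.51 with HGF, against 11.29, 11.38, 11.35 and 11.43 in Control. Both inhibitor groups thus lay between the HGF arrays and the Control arrays without overlapping either. The fit gave a rise of 2.19 ± 0.09 with HGF over Control (4.56-fold, adjusted p = 5.16e-11), and changes against HGF of -1.43 ± 0.09 with PD (adjusted p = 4.29e-09) and -1.61 ± 0.10 with UO (adjusted p = 3.52e-09). ASNS remained above Control by 0.76 ± 0.09 with HGF + PD (adjusted p = 1.51e-05) and by 0.58 ± 0.10 with HGF + UO (adjusted p = 0.000464). Its other 2 probe sets gave 2.01 and 2.38 for HGF over Control, and 0.45 to 0.65 for the inhibitor groups over Control, all past the threshold. In the inhibitor groups, then, ASNS mRNA passed above Control and ATF4 mRNA did not.

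PHGDH and PSAT1 catalyse the first and second steps of serine synthesis from a glycolytic intermediate, and both are ATF4 targets. PSAT1 had a log2 intensity of 13.09, 13.02, 12.96 and 12.99 with HGF + PD and of 13.29, 13.33 and 13.18 with HGF + UO. It was 13.32, 13.53, 13.22 and 13.19 with HGF, against 12.35, 12.28, 12.26 and 12.24 in Control. All 11 arrays of cells given HGF lay above all Control arrays, with or without an inhibitor. PSAT1 rose by 1.03 ± 0.06 with HGF over Control (2.04-fold, adjusted p = 3.98e-09). With PD it fell against HGF by 0.30 ± 0.06 (adjusted p = 0.000904). With UO the difference from HGF was -0.05 ± 0.07 (adjusted p = 0.6, 95% interval -0.19 to 0.10). Above Control it stood by 0.73 ± 0.06 with HGF + PD (adjusted p = 7.97e-07) and by 0.98 ± 0.07 with HGF + UO (adjusted p = 2.21e-07). Its other 2 probe sets read 1.13 and 1.18 for HGF over Control, -0.29 and -0.31 for PD against HGF, and -0.12 and -0.14 for UO against HGF, the last pair not past the threshold (adjusted p = 0.213 and 0.124) but with 95% intervals that reach -0.29 and -0.30.

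PHGDH was the 1 gene of the 10 that was higher with PD than with HGF alone. Its log2 intensity was 13.10, 12.80, 12.92 and 13.11 with HGF + PD and 12.46, 12.51 and 12.59 with HGF + UO. On HGF arrays it was 12.73, 12.83, 12.52 and 12.56, against 12.03, 12.02, 11.98 and 12.03 in Control. The HGF + PD arrays were on average the highest but overlapped with HGF in 1 array, and Control was the lowest group without overlap. The change was 0.64 ± 0.08 for HGF against Control (1.56-fold, adjusted p = 3.97e-06) and 0.32 ± 0.08 for HGF + PD against HGF (1.25-fold, adjusted p = 0.00213). With UO against HGF it was -0.14 ± 0.08 (adjusted p = 0.167, 95% interval -0.32 to 0.03). Against Control, PHGDH was higher by 0.97 ± 0.08 with HGF + PD (adjusted p = 3.15e-07) and by 0.50 ± 0.08 with HGF + UO (adjusted p = 0.00045). Each of its other 4 probe sets was past the threshold in the same direction for HGF against Control (0.63 to 0.78) and for HGF + PD against HGF (0.29 to 0.32). On those 4, the arrays did not overlap for PD against HGF in 3 cases.

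**Figure D2:**
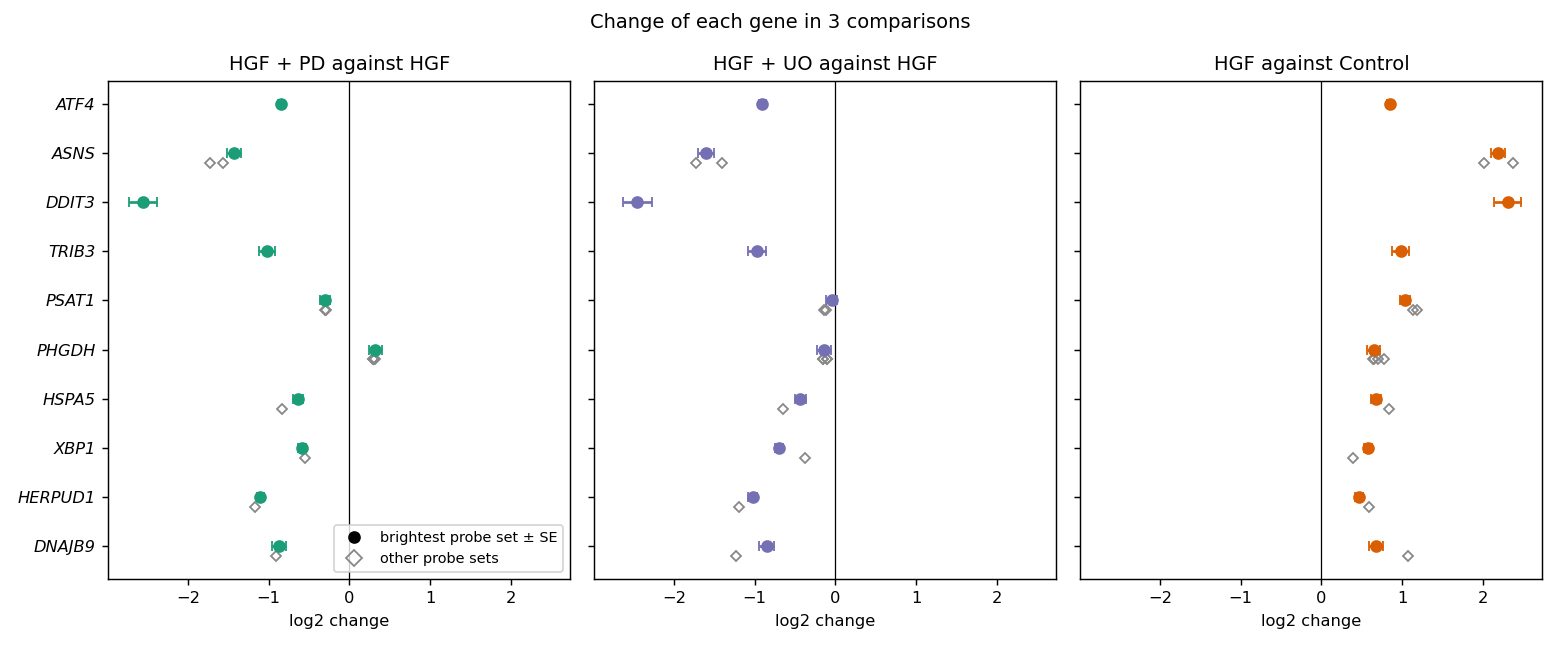
Log2 change of each gene for HGF + PD against HGF, HGF + UO against HGF and HGF against Control, with circles for the brightest probe set ± SE and open diamonds for the gene's other probe sets. DDIT3 and ASNS have the longest distances from 0 in all 3 panels, PSAT1 and PHGDH lie near 0 with UO, and PHGDH alone lies right of 0 with PD (0.32).

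XBP1 and HSPA5 belong to the ER response, and their total mRNA does not measure the activity of the IRE1 or ATF6 arm. XBP1 encodes the transcription factor whose mRNA IRE1 splices, and HSPA5 encodes BiP, the main Hsp70 chaperone of the ER lumen. The log2 intensity of XBP1 was 12.37 to 12.54 with HGF + PD and 12.26 to 12.48 with HGF + UO, and 13.04 to 13.10 with HGF against 12.43 to 12.56 in Control. Its HGF arrays lay above all others. XBP1 rose by 0.58 ± 0.05 with HGF (1.49-fold, adjusted p = 1.24e-07) and fell by 0.59 ± 0.05 with PD and by 0.70 ± 0.05 with UO against HGF (adjusted p = 1.09e-07 and 4.38e-08). The second XBP1 probe set gave 0.39, -0.55 and -0.38 in these comparisons, all past the threshold. Against Control the change was -0.01 ± 0.05 with HGF + PD (adjusted p = 0.918) and -0.12 ± 0.05 with HGF + UO (adjusted p = 0.12). Without HGF + UO replicate 1, the highest of its 3 arrays, the HGF + UO difference was -0.18 and passed (adjusted p = 0.0265).

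HSPA5 had a log2 intensity of 14.34, 14.25, 14.05 and 14.23 with HGF + PD and of 14.44, 14.41 and 14.42 with HGF + UO. It was 15.01, 14.90, 14.75 and 14.78 with HGF, against 14.09, 14.22, 14.18 and 14.24 in Control. The HGF arrays were the highest, the HGF + PD arrays overlapped with Control, and the HGF + UO arrays fell between HGF and Control without overlap. The rise with HGF over Control was 0.68 ± 0.06 (1.60-fold, adjusted p = 2.75e-07), and the falls against HGF were -0.64 ± 0.06 with PD (adjusted p = 5.08e-07) and -0.44 ± 0.07 with UO (adjusted p = 6.08e-05). Against Control, HSPA5 differed by 0.04 ± 0.06 with HGF + PD (adjusted p = 0.682) and by 0.24 ± 0.07 with HGF + UO (adjusted p = 0.0175). The call for UO was lost on this probe set when each array was centred on its median (adjusted p = 0.0512) and without HGF + UO replicate 1 or 3 (adjusted p = 0.0575 and 0.0504). A second HSPA5 probe set read 0.19 ± 0.04 for HGF + UO against Control (adjusted p = 0.00421), and 0.84, -0.83 and -0.65 for HGF against Control, PD against HGF and UO against HGF.

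HERPUD1 and DNAJB9 act in the disposal of misfolded ER proteins. HERPUD1 is a membrane protein of the ubiquitin ligase complex for ER-associated degradation, and DNAJB9 (ERdj4) is a luminal co-chaperone of BiP that also restrains IRE1. HERPUD1 had a log2 intensity of 12.33, 12.12, 12.12 and 12.23 with HGF + PD and of 12.31, 12.29 and 12.24 with HGF + UO. It was 13.35, 13.25, 13.27 and 13.36 with HGF, against 12.84, 12.81, 12.80 and 12.91 in Control. The groups formed 3 levels that did not overlap, with both inhibitor groups at the bottom, Control in the middle and HGF on top. The rise with HGF was 0.47 ± 0.05 (1.38-fold, adjusted p = 1.01e-06). HERPUD1 fell by 1.10 ± 0.05 with PD against HGF (2.15-fold, adjusted p = 1.09e-10) and by 1.03 ± 0.05 with UO against HGF (2.04-fold, adjusted p = 6.17e-10). It was below Control by a log2 change of -0.64 ± 0.05 with HGF + PD (adjusted p = 2.15e-07) and of -0.56 ± 0.05 with HGF + UO (adjusted p = 2.95e-06). The second HERPUD1 probe set gave 0.59 for HGF against Control and -0.58 and -0.60 for the inhibitor groups against Control, all past the threshold.

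DNAJB9 had log2 intensities of 10.28 to 10.69 with HGF + PD and 10.33 to 10.56 with HGF + UO, and of 11.19 to 11.51 with HGF against 10.62 to 10.67 in Control. The HGF arrays lay above the rest. It rose by 0.68 ± 0.09 with HGF (1.60-fold, adjusted p = 9.24e-06) and fell by 0.88 ± 0.09 with PD and by 0.85 ± 0.09 with UO against HGF (adjusted p = 6.97e-07 and 2.37e-06). Against Control the brightest probe set read -0.20 ± 0.09 with HGF + PD (adjusted p = 0.098), with the highest HGF + PD array, replicate 1, above all Control arrays. Without that array the value was -0.28 (adjusted p = 0.0132). The second DNAJB9 probe set read 0.16 in the same comparison (adjusted p = 0.151), so the 2 probe sets differed in sign. With HGF + UO the brightest and the second probe set gave -0.17 and -0.16 against Control (adjusted p = 0.23 and 0.237).

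**Figure D3:**
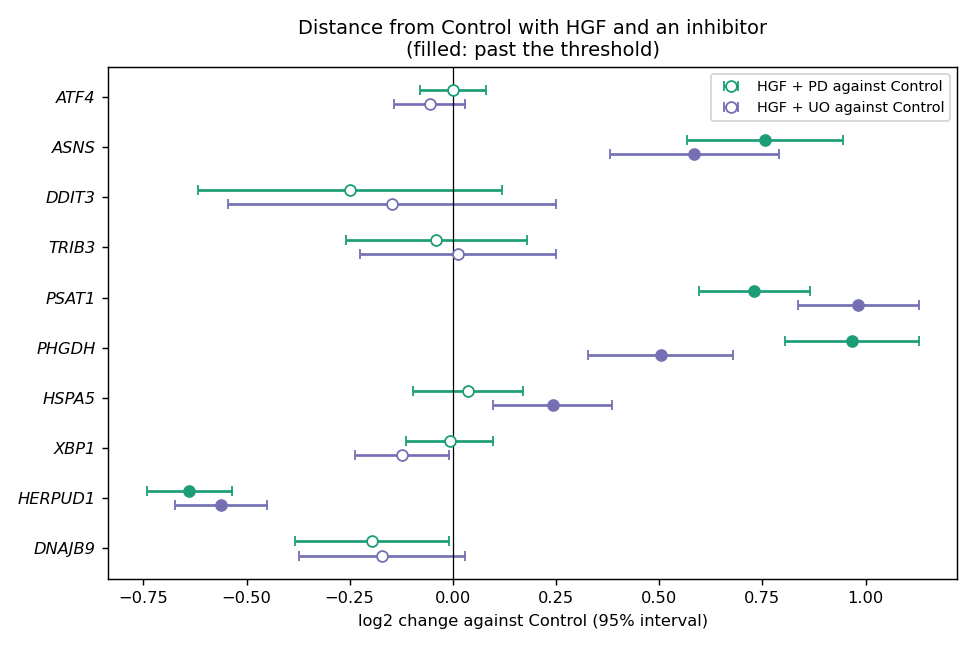
Log2 change against Control of each gene with HGF + PD and with HGF + UO, on the brightest probe set, with bars for the 95% interval and filled circles where the adjusted p was under the threshold. ASNS, PSAT1 and PHGDH lie right of 0 in both groups, HERPUD1 lies left of 0 in both (-0.64 and -0.56), and HSPA5 is filled with HGF + UO (0.24) and open with HGF + PD (0.04).

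Counted against Control, HGF + PD left 3 genes higher, 1 lower and 6 not past the threshold, where 21.8% of all genes were higher and 13.5% lower. HGF + UO left 4 higher, 1 lower and 5 not past it, where 13.8% of all genes were higher and 10.3% lower. These 2 comparisons share the Control arrays. The compounds were given at different doses, 50 uM for PD and 10 uM for UO, so the values of the 2 groups stand side by side and the compounds were not compared with each other.

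The members can also be set by likeness of pattern, taken as the root mean square difference over the 15 arrays after each gene's Control mean is subtracted. Among the 10287 genes, those nearest to ATF4 were FLCN, UTP4 and PTP4A2, with differences of 0.07, 0.07 and 0.08 and HGF changes of 0.89, 0.88 and 0.88. Nearest to ASNS were SHMT2 (0.16), the mitochondrial serine hydroxymethyltransferase, CLCN4 (0.18), a chloride-proton exchanger, and SLC1A4 (0.18), a transporter of small neutral amino acids. HSPA5 had GALT (0.09), RAB6A (0.10) and LOC491883 (0.11) nearest to it. Within the 10, PSAT1 and PHGDH were each other's nearest gene (0.33), while XBP1 and ATF4 were each other's nearest (0.16). HERPUD1 was nearest to DNAJB9 (0.32).

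A wider set of 178 gene symbols in 10 lists shows how far the same pattern extended, and 147 genes were measured on a probe set. The symbols include older names of some of the genes, and the lists include heat shock proteins for comparison. Each list is described by its counts, to be read beside the background shares of all genes given above. The medians over all genes were -0.01 for HGF against Control and -0.02 for HGF + PD against HGF.

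Enzymes of amino acid synthesis and one-carbon metabolism had 9 of 12 measured genes higher and 2 lower with HGF, and a median change of 1.35. MTHFD2, a mitochondrial folate enzyme, rose by 4.03 ± 0.08 (adjusted p = 3.84e-14), BCAT1, which transaminates branched-chain amino acids, by 2.97 ± 0.08, and SHMT2 by 1.98 ± 0.06. The 2 that fell were GOT1, the cytosolic aspartate transaminase (-0.92 ± 0.07), and CBS of the transsulfuration pathway (-0.75 ± 0.12). Against HGF, PD lowered 7 and raised 1 (median -0.996), and UO lowered 7 and raised 1 (median -1.13). MTHFD2 fell by 2.74 ± 0.08 with PD and by 2.98 ± 0.08 with UO, and BCAT1 changed by -2.53 ± 0.08 and -2.57 ± 0.09, while GOT1 rose by 1.24 ± 0.07 and by 1.16 ± 0.07. Against Control, 9 of 12 were higher and 1 lower with HGF + PD, and 7 were higher and 1 lower with HGF + UO. Both counts of higher genes include GOT1, at 0.32 with HGF + PD and 0.25 with HGF + UO, which was below Control with HGF alone. PSPH, the third enzyme of serine synthesis, chosen after its values were seen, rose by 0.75 ± 0.10 with HGF. Its changes with PD and UO against HGF were -0.14 ± 0.10 (adjusted p = 0.24) and -0.20 ± 0.10 (adjusted p = 0.121), and a second PSPH probe set passed in both at -0.33 and -0.48.

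The amino acid transporters that were measured went the same way, but only 5 of the 10 annotated had a probe set that passed the filter. Of these 5, 5 were higher and 0 lower with HGF (median 1.42). Against HGF, 5 were lower with PD (median -1.32) and 4 with UO (median -1.51). SLC1A4 rose by 2.09 ± 0.09 and SLC38A2, a sodium-coupled transporter of neutral amino acids, by 2.02 ± 0.14. SLC7A5, the light chain of the leucine transporter LAT1, rose by 1.42 ± 0.12 and fell by 1.38 ± 0.12 with PD and by 1.51 ± 0.13 with UO against HGF. Against Control 1 transporter stayed higher with either inhibitor, SLC1A4 at 0.77 with HGF + PD and 0.35 with HGF + UO, while its second probe set, at 0.37 and 0.32, did not pass.

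ATF4 targets of stress and growth control were mixed, with 6 of 12 higher and 5 lower with HGF (median 0.26). DDIT4, an inhibitor of mTORC1, rose by 3.81 ± 0.25, the translation repressor EIF4EBP1 by 2.82 ± 0.08 and the growth factor VEGFA by 1.65 ± 0.12. The lipoprotein receptor VLDLR fell by 0.43 ± 0.10, NUPR1, a stress-induced chromatin protein, by 0.40, and KLHL24 by 0.39. Other probe sets of VLDLR, at -0.28 and -0.16, did not pass. PD lowered 7 and raised 3 of the list against HGF, and UO lowered 8 and raised 1. With PD, EIF4EBP1 fell by 2.16 ± 0.08 and VLDLR rose by 1.48 ± 0.10, and with UO they changed by -2.42 ± 0.09 and 1.39 ± 0.10.

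**Figure D4:**
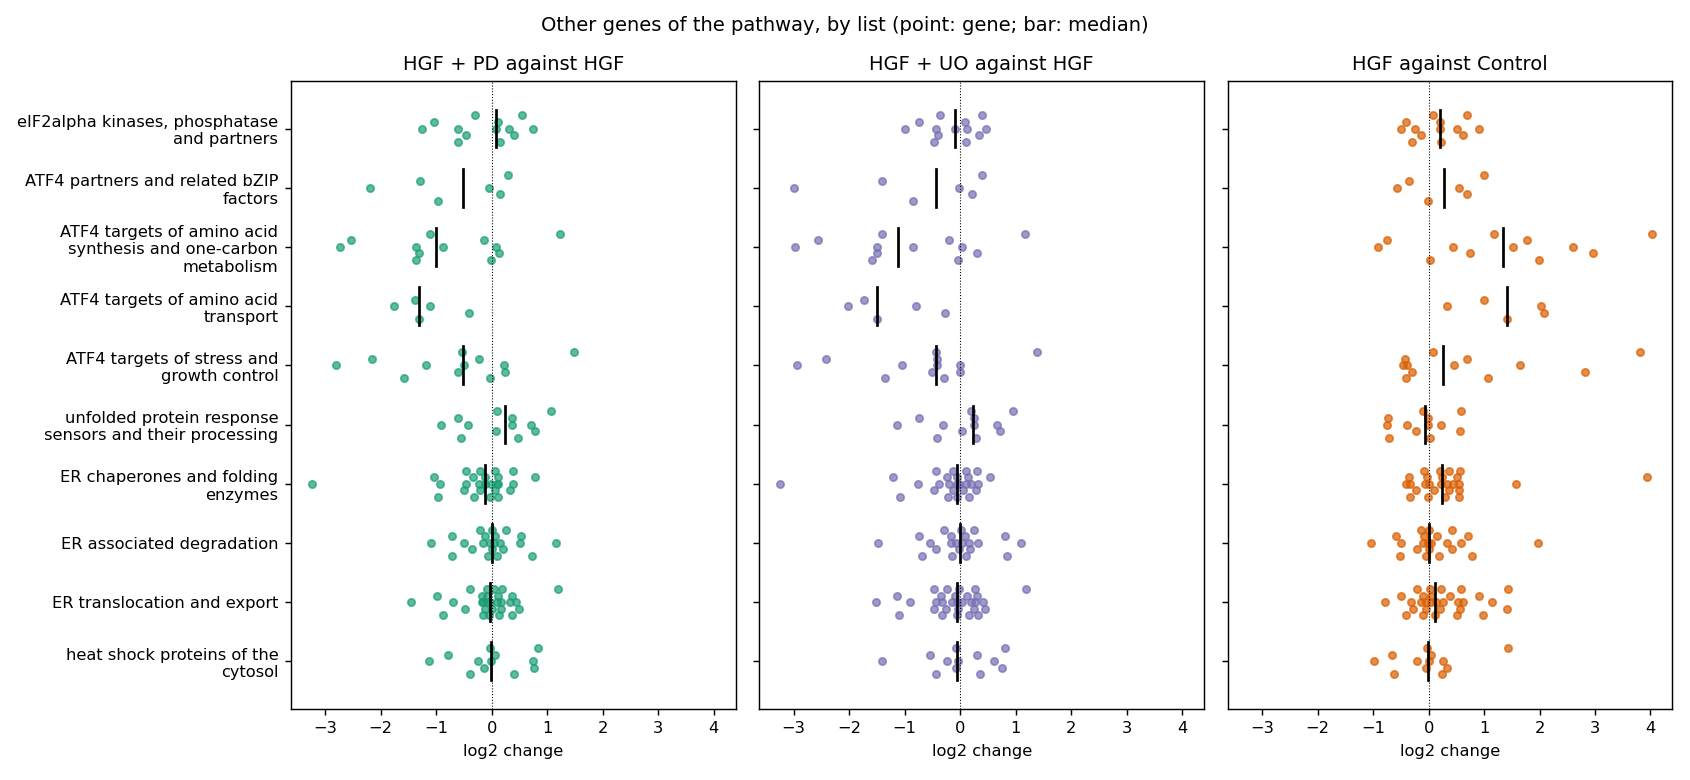
Log2 change of each related gene by list, for HGF + PD against HGF, HGF + UO against HGF and HGF against Control, with 1 point per gene and a bar at the list's median (vertical position within a list only separates points). Amino acid synthesis and transport genes lie mostly right of 0 with HGF (medians 1.35 and 1.42) and left of 0 with an inhibitor, while with HGF the ER list medians run from -0.06 (sensors) to 0.24 (chaperones).

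Upstream components of eIF2alpha signalling moved by less and in both directions. Of 13 measured, 6 were higher and 4 lower with HGF, 6 lower and 4 higher with PD against HGF, and 6 lower and 3 higher with UO. EIF2S1, which encodes eIF2alpha itself, rose by 0.70 ± 0.05 and the exchange factor subunit EIF2B1 by 0.61 ± 0.10. EIF2AK2, the RNA-activated kinase PKR, rose by 0.92 ± 0.18 from a dim Control mean of 5.18. EIF2AK4, the amino acid sensing kinase GCN2, fell by 0.50. PERK (EIF2AK3) differed by 0.22 with HGF, which did not pass, and fell by 0.60 with PD and by 0.75 with UO against HGF. PPP1R15A, which directs dephosphorylation of eIF2alpha and is itself an ATF4 target, fell by 0.31 with HGF on its brightest probe set, a call that its other 4 probe sets (-0.19 to 0.38) did not share. All 5 were lower with PD and with UO than with HGF, the brightest at -0.62 and -0.44. Of 6 measured bZIP factors that pair with or resemble ATF4, 3 were higher and 2 lower with HGF. ATF3, induced by ATF4, rose by 0.69 ± 0.15 with HGF, and fell by 0.98 ± 0.15 with PD and by 1.41 ± 0.16 with UO against HGF.

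The lists of ER function differed among themselves in their medians, from -0.06 for sensors to 0.24 for chaperones with HGF. Of 12 measured sensors and processing factors 2 were higher and 5 lower with HGF (median -0.06), or 3 and 4 with each array centred on its median. Over all genes, 28% were higher and 27.7% lower. With UO against HGF 6 were higher and 3 lower, or 5 and 4 when centred, and with PD 6 were higher and 4 lower. Over all genes, 26.2% were higher and 26.3% lower with UO, and 29.9% higher and 25.8% lower with PD. MBTPS1, the protease that makes the first cut in ATF6, fell by 0.71 ± 0.08 with HGF and rose by 0.77 ± 0.08 with PD and by 0.71 ± 0.09 with UO against HGF. MBTPS2, which makes the second cut, rose by 0.57 ± 0.09 with HGF and fell by 0.43 with PD and by 0.41 with UO. NFYB, a subunit of the factor that binds beside ATF6, fell by 0.73 ± 0.06 with HGF.

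Of 26 ER chaperones and folding enzymes 15 were higher and 5 lower with HGF (median 0.24), 10 lower and 5 higher with PD against HGF, and 9 lower and 6 higher with UO (11 and 4 when centred). ERO1A, the oxidase that recharges disulfide isomerases and a gene also known to respond to low oxygen, rose by 3.94 ± 0.08 with HGF, and fell by 3.24 ± 0.08 with PD and fell by 3.25 ± 0.09 with UO. MANF, a secreted ER stress protein, rose by 1.58 ± 0.08 and fell by 0.97 ± 0.08 and by 1.08 ± 0.08. The disulfide isomerase P4HB rose by 0.54 ± 0.06. PDIA5, another isomerase, fell by 0.94 with PD and by 1.22 with UO against HGF. SDF2, DNAJC10 and SELENOK fell by 0.33, 0.35 and 0.34 with HGF.

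Of 22 degradation factors 8 were higher and 6 lower with HGF (median 0.01), where 28% and 27.7% of all genes were. Against HGF, 6 were higher and 5 lower with PD (5 and 8 when centred), where the shares of all genes were 29.9% and 25.8%. With UO against HGF 6 were higher and 7 lower, where the shares were 26.2% and 26.3%. DERL1, a channel subunit for retrotranslocation, rose by 0.72 ± 0.05, and SEL1L, the scaffold of the ligase complex in which HERPUD1 sits, by 0.59 ± 0.06. EDEM1, a mannosidase-like lectin, rose by 1.98 ± 0.24 from a Control mean of 3.9, below the filter level, so that its size depends on the background estimate. OS9, a lectin of the same pathway, fell by 1.03 ± 0.05 with HGF and rose by 1.15 ± 0.05 with PD and by 1.10 ± 0.06 with UO. Of 30 genes of ER translocation and export 14 were higher and 8 lower with HGF (median 0.12), among them the signal peptidase subunits SPCS3 (1.44 ± 0.04) and SEC11C (-0.78 ± 0.05), the coat protein SEC24D (1.41 ± 0.07) and the channel subunit SEC61A1 (0.90 ± 0.05). PD raised 9 and lowered 9 of them against HGF (7 and 14 when centred), and UO raised 9 and lowered 13. The shares of all genes are those given for the degradation factors.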

How the data were processed

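The authors deposited linear probe intensities, 1 array per sample, summarised per probe set with GCRMA (background correction by probe sequence, normalization, summary), per the submitters' processing notes. Version and annotation are not given in the sources used here. GCRMA compresses dim values towards a floor. Depth does not apply to arrays, where precision rests on their number.

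All 43035 probe sets were put on the log2 scale. The 111 controls were left out, and a probe set was kept if 3 or more arrays reached 4 on that scale. Names came from the platform annotation, where 29264 probe sets have 1 symbol and 439 several (not named). A gene's brightest probe set over all arrays represents it. limma 3.58.1 (R 4.3.3) fitted 4 group means to 15 arrays, with eBayes (variance trend) and Benjamini-Hochberg adjustment over all probe sets kept. Errors are SE of the fit. The procedure was run on data simulated with normal noise, with 100 probe sets changed by 0.5 and 100 by 1 on the log2 scale. It recovered 70% and 96% of them, with 12 false calls. Far fewer probe sets changed there than were called in the real data, so these rates may not hold here. The labels call replicates biological without giving separate cultures, so the p-values cover only array-to-array spread, which may be technical.

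The members and lists were chosen with earlier results of these data known. Named genes are the members, and of each list up to 3 per direction and comparison with the lowest adjusted p; the 3 nearest genes in pattern are given for ATF4, ASNS and HSPA5. Promoter and protein sequences were not used here. Alternatives covered the filter, scaling, an offset, the variance model, arrays fitted, the replicate block and arrays left out.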

Additional observations from a re-analysis of the deposited data

Results flagged for a closer look

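In 4 of 66 groups of 4 arrays (22 probe sets in 3 groups each), 1 array stood apart from the other 3 by Dixon's test, which chance alone does in about 1 group in 20. On 1 PHGDH probe set, HGF + PD replicate 1 read a log2 intensity of 10.87, against 11.11 on the nearest other array. On another PHGDH probe set, Control replicate 1 read 9.522, against 9.29. The second HSPA5 probe set read 13.5 on HGF + PD replicate 3, against 13.62. The second DNAJB9 probe set read 9.498 on HGF + PD replicate 4, against 9.29. None of these 4 probe sets is the brightest of its gene.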

How the results depend on the processing

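For HGF against Control, HGF + PD against HGF and HGF + UO against HGF, all 10 genes kept their direction where called and their side of the threshold under the 10 alternative settings and with each of the 15 arrays left out. Over those omissions the counts of probe sets past the threshold were 12969 to 13947, 12955 to 13959 and 12026 to 13122. Against Control, the number of genes lower with HGF + PD was 2 instead of 1 with quantile normalization (DNAJB9, -0.27, adjusted p = 0.0185) and with only the 2 groups fitted (DDIT3), and 1 to 2 with arrays left out. With HGF + UO it was 1 to 2 with arrays left out, and genes higher numbered 3 to 4. HSPA5 lost its call there when arrays were centred on their medians (0.24, adjusted p = 0.0512). The cause was not tested. No called gene of the lists turned its sign under either scaling. Pairing by replicate number was mixed: same-numbered deviations correlated at -0.25 to 0.21, -0.06 to 0.41 and -0.16 to 0.17 in the 3 comparisons. In the same order, 1 of 4, 3 of 4 and 1 of 3 arrays correlated best with their own number. The 3 of 4 belong to HGF + PD against HGF, so arrays sharing a replicate number there may not be independent. With the replicate block, 13924, 13850 and 12919 probe sets passed, against 13839, 13798 and 13060 without it, and no member's call changed. Signals near the filter level limit EDEM1 and other dim genes of the lists. Among these are EIF2AK2, with group means of 4.84 to 6.10, and ATF6, with a mean of 4.20 with HGF. The members lay higher, with a lowest log2 intensity of 7.08.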

Other observations

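A list for comparison held mainly cytosolic heat shock proteins, the counterpart of the ER chaperones outside the ER. It also named the mitochondrial chaperonins HSPD1 and HSPE1 and the transcription factor HSF1. Of 12 measured, 4 were higher and 4 lower with HGF against Control (median -0.01), where 28% and 27.7% of all genes were. With HGF + PD against HGF 5 were lower and 4 higher, where the shares of all genes were 25.8% and 29.9%. With HGF + UO against HGF 4 were lower and 5 higher, where the shares were 26.3% and 26.2%. HSPA8, the constitutive Hsp70, fell by 0.62 ± 0.04 with HGF and rose by 0.75 ± 0.04 with PD and by 0.81 ± 0.04 with UO against HGF. HSPH1, its exchange factor, fell by 0.65 ± 0.03 with HGF, while DNAJB1, an Hsp40 co-chaperone, rose by 1.43 ± 0.08 with HGF. The ER Hsp70 (HSPA5) and the cytosolic Hsp70 (HSPA8) thus moved in opposite directions with HGF, at 0.68 and -0.62.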
